A study of Mus musculus with 4 samples.

Results

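The Hedgehog pathway was followed through 7 of its genes in the injured mouse lung: the ligand Shh, the receptors Ptch1 and Hhip, the signal transducer Smo and the transcription factors Gli1, Gli2 and Gli3. The 7 genes were taken by name from the 32286 genes of the deposited single-cell tables, and all 7 had UMIs (unique molecular identifiers, each standing for a single captured transcript). The study compared WT littermates with Tubb3-/- mice that were homozygous for a Tubb3-Cre knockin, in which Cre was placed at the start of Tubb3, the gene of the tubulin TUBB3. Both groups held 2 mice of 8 to 11 weeks, and every mouse had received intratracheal bleomycin at 0.8 U/kg 14 days before the lungs were taken. No untreated mouse was in the series, so that the levels describe the bleomycin-injured lung only, and the strain was not given in the sources used here. Cells of each mouse entered 2 pools. The whole cell pool was depleted of TER-119+ red cells and sorted for live cells. The mural cell-enriched pool was depleted of CD31, CD45, EpCAM and TER-119 and was then rebuilt from MCAM+ PDGFRα- and MCAM- cells mixed 1:1, and this sort bears on the shares of cells and on the Pdgfra gate.

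Hedgehog ligands bind Patched receptors, which in the absence of ligand hold Smoothened inactive. Released Smoothened lets the Gli factors act on their targets, and Gli1, Ptch1 and Hhip are themselves targets, so that their transcripts are commonly read as signs of a responding cell. Gli2 and Gli3 lie upstream of that response, Gli3 often as a repressor, while Ptch1 and Hhip bind ligand and damp the signal. In the lung the ligand is known from epithelium and the response from the mesenchyme around the airways.

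The 8 libraries held 41462258 to 95036340 gene UMIs, with 9186 to 16299 in the median cell. Within each pool the libraries of the Tubb3-/- mice were the deeper ones (whole cells, 12318 and 11484.5 against 9186 and 10091 UMIs in the median cell; mural cell-enriched, 16299 and 15725 against 13321 and 12406). Of 32121 cells, 30860 had 200 to 7500 detected genes and at most 15% mitochondrial UMIs. These limits are those of the study's methods, which name a smaller number of clustered cells. Cells were assigned to a lineage by a single gate gene: Ptprc for immune, Cdh5 for endothelial, Epcam for epithelial, Msln for mesothelial, at least 3 UMIs of Higd1b or Myh11 for mural and Pdgfra for fibroblast. Exactly 1 gate was met by 19395 cells (6447 fibroblast, 4093 mural, 602 mesothelial, 443 epithelial, 2824 endothelial and 4986 immune). A further 10248 cells met several gates and 1217 met none. The defining markers, leaving out the gate genes, were highest in the lineage of their name for 5 of 5 endothelial, epithelial, immune and mesothelial genes, 6 of 6 mural genes and 5 of 6 fibroblast genes. The exception was Dcn, which was highest in mesothelial cells, where the summed fibroblast list stood at 7559.9 CPM against 14959 CPM in fibroblasts. No barcode was shared between mice of a pool, which follows from the assignment of each barcode to 1 tag and is no check. Between the pools 59 barcodes were shared. Tubb3 stood at 1.93 and 0.868 CPM in the whole cells of the WT mice against 0.262 and 0.321 CPM in those of the Tubb3-/- mice, and at 5.49 and 3.67 against 0.789 and 0.680 CPM in the mural cell-enriched pool, so that no library went against its label.

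The members lie on 6 chromosomes of GRCm38 in the GENCODE annotation. Shh (ENSMUSG00000002633) is at chr5:28456815-28467256 on the minus strand, Hhip (ENSMUSG00000064325) at chr8:79965851-80058006 (minus), Ptch1 (ENSMUSG00000021466) at chr13:63508328-63573598 (minus) and Smo (ENSMUSG00000001761) at chr6:29735503-29761365 (plus). Gli1 (ENSMUSG00000025407) is at chr10:127329882-127341974 (minus), Gli2 (ENSMUSG00000048402) at chr1:118834132-119053619 (minus) and Gli3 (ENSMUSG00000021318) at chr13:15463235-15730026 (plus). Exons of an opposite-strand gene overlap exons of Shh (9530036O11Rik and Gm26894), Hhip (Gm27820), Gli1 (Arhgap9 and Gm47200) and Gli3 (Gm6556). Use of the strand in counting was not given in the sources used here, so the counts of these 4 members are uncertain at the shared exons.

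Promoter windows of the 250 bases before the RefSeq start (GRCm38.p6) were matched for 5 of the 7 members, Hhip, Ptch1, Smo, Gli2 and Gli3, and Shh and Gli1 had no entry. Those of Hhip and Ptch1 are shown because these are the receptor transcripts that the results below turn on. They are written 5′ to 3′ on the minus strand, the strand of both genes, and contain no capitals because the motif searched was in neither. The Hhip window spans chr8:80058009-80058258 and the Ptch1 window spans chr13:63565736-63565985. No GENCODE exon overlaps either window, and the Ptch1 window lies within the GENCODE span of Ptch1, before a start inside that span.
Hhip: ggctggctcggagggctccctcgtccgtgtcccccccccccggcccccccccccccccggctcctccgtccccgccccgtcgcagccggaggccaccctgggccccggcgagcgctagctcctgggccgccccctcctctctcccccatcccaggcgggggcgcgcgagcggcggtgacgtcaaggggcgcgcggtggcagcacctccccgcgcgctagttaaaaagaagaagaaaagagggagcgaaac
Ptch1: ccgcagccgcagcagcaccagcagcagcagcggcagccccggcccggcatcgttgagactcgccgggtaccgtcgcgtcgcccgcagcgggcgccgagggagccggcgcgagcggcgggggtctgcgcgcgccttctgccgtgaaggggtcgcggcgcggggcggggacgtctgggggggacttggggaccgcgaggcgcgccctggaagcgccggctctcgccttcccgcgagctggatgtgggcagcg
Both windows are rich in G and C, at 76.0% with 28 CpG dinucleotides in that of Hhip and 78.4% with 41 in that of Ptch1, and the other 3 stood between 67.2% (Gli2) and 72.8% (Gli3). The Gli binding motif GACCACCCA, read on both strands, was in none of the 5 windows, either exactly or with up to 1 mismatch. Of 32851 RefSeq windows of the same length, 0.225% held it exactly and 5.79% with up to 1 mismatch. That says only that these letters are not in these stretches.

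Levels are given as CPM, the UMIs of a gene per 1000000 gene UMIs of all cells of a lineage in a mouse, with the 4 mice in the order WT 1, WT 2, Tubb3-/- 1 and Tubb3-/- 2. Lineages were compared by edgeR's quasi-likelihood test on the summed UMIs with the mouse as a block, and p-values were adjusted over all genes tested. A member was tested where it had at least 40 UMIs over the sets compared and passed the low-count filter. The replicates are mice, and with 2 against 2 the p-values rest on few animals.

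Shh was an epithelial transcript. It stood at 14.7, 14.0, 16.9 and 15.1 CPM in the epithelial cells of the 4 mice (15.2 ± 1.22 CPM, mean ± SD, n = 4), from 125 UMIs in all, and 19.4% of epithelial cells had a UMI. No other lineage had more than 9 Shh UMIs: immune cells held 9, fibroblasts 6, mural cells 5 and endothelial cells 3. In mesothelial cells there were 0 UMIs, which allows up to 0.317 CPM over the lineage, for counting error alone. The highest mean outside the epithelium was 0.164 CPM, in immune cells, and no mouse of any lineage came near the epithelial values. Fibroblasts were lower than epithelial cells by 7.82 ± 0.48 on the log2 scale (SE, adjusted p = 5.24e-11), where 63.1% of all genes tested were called. Against the mean of the other 5 lineages the epithelial value was higher by 7.60 ± 0.37 (adjusted p = 1.27e-12, 61.3% of genes called), a value that depends on the fit's prior count since mesothelial cells held no UMI.

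Within the epithelium Shh was read in subsets with a UMI of exactly 1 of 4 genes, as a description, since these sets are small. Cells with Rtkn2, a marker of alveolar type 1 cells, had 19.3, 38.1, 32.8 and 19.2 CPM (82 cells, 36 UMIs). Cells with Lamp3, a marker of alveolar type 2 cells, had 11.2, 5.04, 16.7 and 9.86 CPM (132 cells, 28 UMIs). The Rtkn2 cells were above the Lamp3 cells in each of the 4 mice. Cells with Scgb3a2, a secretory airway gene, had 15.4, 9.15, 42.5 and 33.1 CPM (24 cells, 17 UMIs), and cells with Foxj1, the regulator of motile cilia, had 9.12, 0, 4.44 and 25.8 CPM (41 cells, 8 UMIs). These last 2 sets overlapped with both alveolar sets and rest on few UMIs.

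Among the gated lineages Hhip, the decoy receptor that sequesters ligand at the cell surface, was highest in cells of the mural gate. Most of it was in few of these cells, as described below. The gate takes any cell with enough Myh11 and does not tell vascular smooth muscle from that of the airways. Mural cells of the 4 mice had 282, 319, 295 and 416 CPM (328 ± 60.7 CPM), above the 170.2, 150.1, 176 and 212 CPM of fibroblasts (177 ± 26.0 CPM). Every mouse was higher in mural cells, by 0.80 ± 0.30 on the log2 scale (adjusted p = 0.0305), where 48.7% of genes were called. That call was lost with DESeq2 (adjusted p = 0.0813), without cells above 30000 UMIs (0.0565), without the mouse as a block (0.0875), and when WT mouse 1 (0.0831), Tubb3-/- mouse 1 (0.0718) or Tubb3-/- mouse 2 (0.0657) was left out. It held in each pool alone, with fibroblasts lower by 0.98 in whole cells (0.00788) and by 0.78 in the mural cell-enriched pool (0.0165).

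Hhip was uneven in mesothelial cells, the Msln-gated cells of the lung surface, with 174, 30.5, 147 and 258 CPM. The level depended on the pool, at 193, 31.8, 168 and 283 CPM in the mural cell-enriched pool and 15.5, 24.5, 32.3 and 35.9 CPM in whole cells. WT mouse 2 stood apart below the other 3 mice in both pools together and in the mural cell-enriched pool, but not in whole cells. The difference between mesothelial cells and fibroblasts was not called (fibroblasts higher by 0.62, adjusted p = 0.116). That comparison called 46.8% of all genes. With the gates raised to 2 UMIs, which removes cells carrying a single Msln UMI, fibroblasts were higher by 2.44 and the difference was called, as it was in whole cells alone (2.85) and without Tubb3-/- mouse 2 (0.92, adjusted p = 0.0371). The other lineages held little Hhip: 5.70, 5.32, 3.38 and 26.1 CPM in epithelial, 10.9, 7.68, 4.88 and 11.4 CPM in endothelial and 14.6, 9.04, 8.49 and 8.90 CPM in immune cells. Immune cells are not known to make Hhip, and their level serves as a background here. It includes 9 immune cells with at least 10 Hhip UMIs, 5 of them with at least 30, and the source of these UMIs was not tested. Of the 4986 immune cells 4815 came from the whole cell pool, so it is mostly the background of that pool. The endothelial and epithelial values overlapped with the immune level.

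Ptch1, the ligand receptor that restrains Smo and is induced by the pathway, was above the immune background in 5 lineages. Fibroblasts had 95.3, 115, 82.9 and 102 CPM (98.8 ± 13.4 CPM) and mesothelial cells 84.1, 92.9, 49.1 and 61.5 CPM. Mural cells had 47.9, 77.1, 42.4 and 54.0 CPM and endothelial cells 46.8, 50.7, 37.8 and 41.6 CPM. In this order each lineage overlapped with the next. Epithelial cells, at 18.1, 28.6, 20.3 and 20.1 CPM, lay below all 4, and immune cells, between 8.17 and 9.32 CPM, lay lowest. Fibroblasts were higher than mural cells by 0.95 ± 0.11 (adjusted p = 4.22e-07), than mesothelial cells by 0.74 ± 0.12 (3.04e-05) and than endothelial cells by 1.38 ± 0.12 (1.15e-09, where 66.4% of genes were called). Endothelial cells thus lay above immune cells in Ptch1 in every mouse, while their Hhip mean, 8.72 CPM, was below the immune mean of 10.3 CPM. A Ptch1 UMI was found in 25.0% of endothelial cells (median 7195 UMIs) and in 7.58% of immune cells (median 7034 UMIs).

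Smo, the transducer, was highest in mesothelial cells and its 6 lineages did not overlap. Mesothelial cells had 139, 137, 85.3 and 96.2 CPM (115 ± 27.8 CPM), fibroblasts 44.2, 49.7, 48.5 and 56.6 CPM (49.8 ± 5.13 CPM) and mural cells 30.6, 34.2, 32.7 and 40.4 CPM (34.5 ± 4.20 CPM). Endothelial cells had 11.3 to 14.8 CPM, epithelial cells 7.04 to 9.03 CPM and immune cells 1.71 to 3.62 CPM. Fibroblasts were lower than mesothelial cells by 0.94 ± 0.14 (adjusted p = 1.05e-05) and higher than mural cells by 0.62 ± 0.14 (adjusted p = 0.000758).

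Gli1 and Gli2 were mesenchymal and mesothelial, while Gli3 was also found in epithelial cells. Gli1, the activator that is itself a target, had 18.4, 18.4, 16.1 and 18.4 CPM in fibroblasts (17.8 ± 1.16 CPM) and 22.0, 24.3, 20.8 and 13.01 CPM in mesothelial cells, which overlapped (difference 0.11, adjusted p = 0.665). Mural cells, at 8.74, 10.6, 8.01 and 8.19 CPM, lay below the fibroblasts of every mouse, by 1.11 ± 0.16 on the log2 scale (adjusted p = 7.63e-06). Endothelial, epithelial and immune cells had 33, 9 and 45 Gli1 UMIs in all.

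Gli2, the main activator upstream of Gli1, showed the largest difference between fibroblasts and mural cells among the 6 members tested there. Fibroblasts had 55.8, 54.5, 45.8 and 59.5 CPM and mural cells 21.6, 20.3, 17.5 and 20.2 CPM, a difference of 1.52 ± 0.13 on the log2 scale (adjusted p = 3.38e-09). Mesothelial cells had 90.3, 74.4, 58.6 and 91.9 CPM and overlapped with fibroblasts (fibroblasts lower by 0.28, adjusted p = 0.0976). Epithelial cells held 14 Gli2 UMIs and endothelial cells 37, and both overlapped with immune cells at 0.596 to 1.81 CPM.

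Gli3, which is often a repressor, had 55.3, 52.3, 62.4 and 63.7 CPM in fibroblasts, 45.1, 42.1, 56.1 and 60.7 CPM in mesothelial cells and 27.6, 27.1, 35.7 and 34.9 CPM in mural cells. Fibroblasts were higher than mural cells by 0.99 ± 0.12 (adjusted p = 2.69e-07) and than mesothelial cells by 0.46 ± 0.12 (adjusted p = 0.00434). Unlike Gli1 and Gli2, it had epithelial levels, of 19.0, 17.4, 16.4 and 24.1 CPM, above the 5.63 to 8.23 CPM of endothelial and the 1.39 to 2.90 CPM of immune cells. Among the epithelial subsets the ciliated set was highest: Foxj1 cells had 72.9, 179, 44.4 and 129 CPM (58 UMIs in 41 cells), Lamp3 cells 7.98 to 16.7 CPM and Rtkn2 cells 0 to 8.22 CPM. The epithelial level against the other 5 lineages depended on the pool, at 0.12 in both pools together (adjusted p = 0.458), 0.70 in whole cells alone (0.00352) and -0.72 in the mural cell-enriched pool (0.00278). Of the 41 Foxj1 cells, 36 came from the whole cell pool, and the part of this in the pool difference was not tested.

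**Figure D1:**
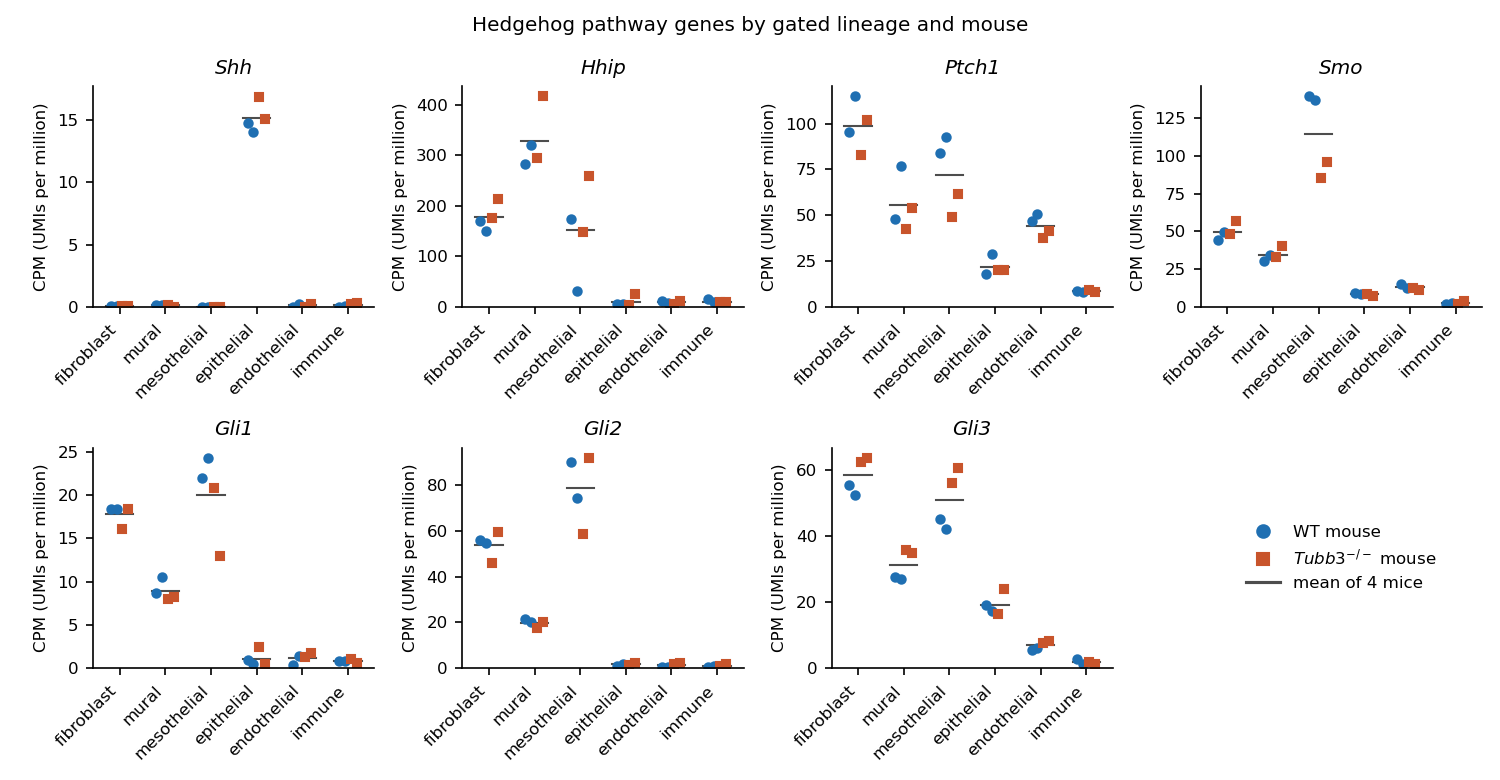
CPM of each of the 7 members (panels, linear axes from 0) in 6 lineages, with circles for the 2 WT mice, squares for the 2 Tubb3-/- mice and a line for the mean of the 4. Shh stands at 15.2 CPM in epithelial cells and at a mean of at most 0.164 CPM elsewhere (0.315 CPM in the highest mouse). Hhip is highest in cells of the mural gate (328 CPM), most of it in few of them. Smo is highest in mesothelial cells (115 CPM).

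Between fibroblasts and the 3 non-mesenchymal lineages nearly every member differed. All 7 were called against epithelial cells, where fibroblasts were higher by 5.16 for Gli2, 4.41 for Hhip, 4.20 for Gli1, 2.75 for Smo, 2.36 for Ptch1 and 1.79 for Gli3. The 6 members other than Shh were called against endothelial cells and against immune cells (77.4% of genes called), with differences of 1.38 (Ptch1) to 5.36 (Gli2) and of 3.41 (Ptch1) to 5.56 (Gli2). Fibroblasts were the higher lineage in every one of these but Shh. Against mural cells 6 of 6 were called, 5 higher and Hhip lower in fibroblasts, and against mesothelial cells 3 of 6. With 46.8% to 77.4% of all genes called in these comparisons, such counts are not particular to the pathway, and the sizes and directions carry the description.

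Shares of cells with a UMI were read beside the levels. In fibroblasts (median 17888 UMIs) 59.5% of cells had a Hhip UMI, 58.1% a Ptch1, 56.1% a Smo, 25.0% a Gli1, 50.6% a Gli2 and 52.0% a Gli3 UMI. After thinning every cell to 3000 UMIs these shares were 28.4% for Hhip, 21.2% for Ptch1, 13.9% for Smo, 5.36% for Gli1, 14.2% for Gli2 and 14.9% for Gli3 (means of 4 mice). The thinned shares of immune cells, taken as the background, were 1.53% for Hhip, 2.60% for Ptch1, 0.759% for Smo, 0.231% for Gli1, 0.251% for Gli2 and 0.462% for Gli3. In mural cells 13.2% had a Hhip UMI after thinning, fewer than in fibroblasts although the mural CPM was higher.

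Mural Hhip was carried by few cells. Over all cells kept, 724 cells (2.35%) held 50% of Hhip UMIs, against 5.73% of cells for Ptch1, 8.75% for Smo and 4.04% for Gli1. The 1878 cells with at least 10 Hhip UMIs (6.09% of cells) held 74.1% of all Hhip UMIs. They were spread over gates, with 644 fibroblasts, 339 mural cells, 24 mesothelial cells, 714 cells that met several gates and 144 that met none, but also 2 epithelial, 2 endothelial and 9 immune cells. In mural cells they made up 7.03%, 7.22%, 9.04% and 9.60% of cells and held 92.0%, 93.5%, 92.9% and 94.3% of mural Hhip. In fibroblasts they made up 7.79%, 5.76%, 11.4% and 14.0% of cells and held 50.5%, 43.6%, 59.7% and 63.9% of fibroblast Hhip. The remaining fibroblast Hhip was thus spread over many cells of low count, and the remaining mural Hhip was small.

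These Hhip-high cells were compared with Hhip-negative cells as a description, with no test, since the set was cut from the counts of the gene itself. Hhip-high mural cells had 204, 211, 141 and 168 CPM of Ptch1 against 29.4, 60.0, 26.3 and 34.8 CPM in Hhip-negative mural cells. Their Gli1 stood at 27.2, 35.9, 16.0 and 16.1 CPM against 6.85, 7.31, 6.22 and 7.23 CPM, and their Gli2 at 46.9, 41.9, 31.4 and 44.9 CPM against 18.0, 17.3, 15.4 and 16.3 CPM. All 3 were higher in each of the 4 mice, and so was Gli3 (54.4, 53.9, 44.1 and 54.4 against 24.6, 22.3, 33.3 and 31.0 CPM). Smo overlapped, at 31.9, 32.9, 45.2 and 61.6 against 31.4, 35.5, 29.2 and 35.2 CPM. The same cells had 2287, 1711, 2963 and 2801 CPM of Aspn, a matrix proteoglycan, against 215 to 274 CPM, and 274, 296, 361 and 486 CPM of the ligand Wnt5a against 7.98 to 24.2 CPM. They kept 1072 to 1440 CPM of Myh11, the smooth muscle myosin, below the 2332 to 2809 CPM of Hhip-negative mural cells. In fibroblasts the Hhip-high cells had 251, 237, 185 and 212 CPM of Ptch1 against 52.9, 79.5, 44.4 and 51.5 CPM, and 183, 136, 356 and 335 CPM of Aspn against 95.6, 85.4, 122 and 142 CPM.

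**Figure D2:**
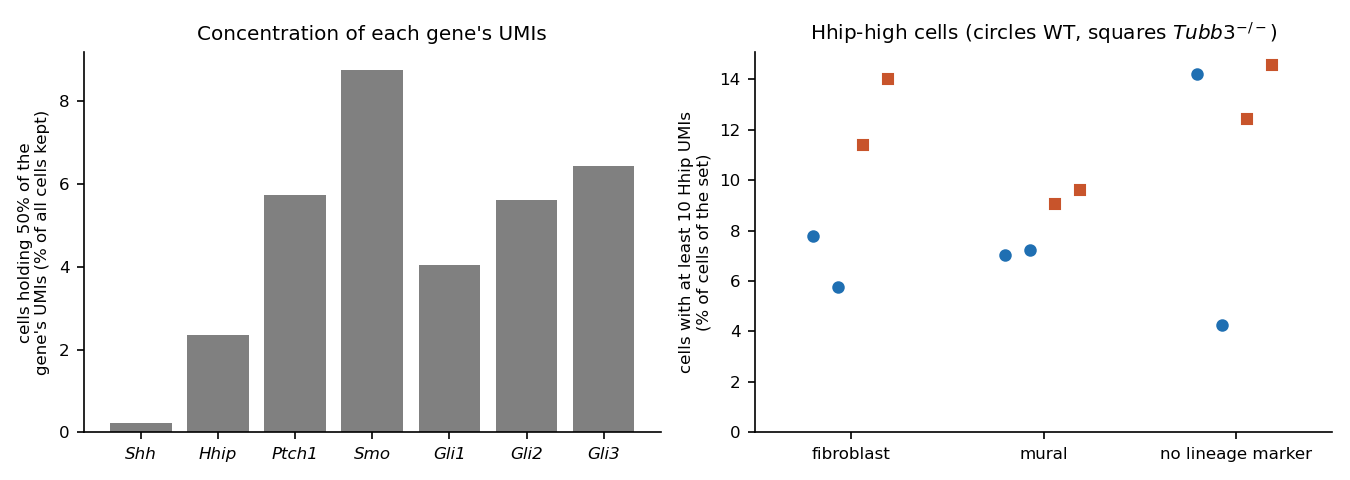
Bars on the left give, for each of the 7 members, the share of all kept cells (percent) that holds 50% of its UMIs. Points on the right give the share of cells with at least 10 Hhip UMIs in fibroblasts, mural cells and cells that met no gate, labelled no lineage marker (circles for the 2 WT mice, squares for the 2 Tubb3-/- mice). Hhip needs 2.35% of cells against 8.75% for Smo, and the shares of Hhip-high cells run from 5.76% to 14.0% in fibroblasts and from 7.03% to 9.60% in mural cells.

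Mural cells were split into those with at least 3 UMIs of Higd1b, a pericyte gene, and those with at least 3 of Myh11, a smooth muscle gene. With none of the other gene allowed, 24 Higd1b cells stood against 3636 Myh11 cells and 16% of genes were called. Hhip was higher in Myh11 cells by 5.36 ± 0.59 on the log2 scale (adjusted p = 1.04e-17), with 286, 352, 317 and 467 CPM against 0, 0, 32.2 and 52.1 CPM from 2 UMIs. Over all UMIs of both sets the ratio was 28.4, with an exact 95% interval of 7.87 to 235 that covers counting error only. Gli2 was also called (adjusted p = 0.0495), at 18.0 to 22.7 CPM in Myh11 cells and 0 UMIs in Higd1b cells, where 3 UMIs over the set would have made 18.6 CPM, so that it was at least 1.11-fold higher in Myh11 cells. Its call was lost when any 1 mouse was left out (adjusted p of 0.116 to 0.340).

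With fewer than 3 UMIs of the other gene allowed, a rule added after the data were seen, the sets held 102 and 3782 cells and 29.8% of genes were called. Hhip was higher in Myh11 cells by 4.84 ± 0.30 (adjusted p = 3.65e-55), with 291, 351, 312 and 446 CPM against 10.97, 9.77, 16.9 and 23.5 CPM. Ptch1 went the other way and was higher in Higd1b cells by 1.44 ± 0.21 (adjusted p = 5.55e-11), at 219, 247, 89.9 and 106 CPM against 45.3, 58.7, 39.3 and 50.1 CPM. The Ptch1 levels of the Higd1b cells rest on 130 UMIs, did not overlap with those of the Myh11 cells, and were not called in the first split (fitted difference 1.09, adjusted p = 0.0826). Gli2 was higher in Myh11 cells by 2.25 ± 0.63 (adjusted p = 0.00189) from 4 UMIs in Higd1b cells, and Gli3 by 1.64 ± 0.45 (adjusted p = 0.00162) from 9 UMIs. Gli1 (0.70) and Smo (0.25) were not called.

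A set of 1434 cells carried both Pdgfra and at least 3 UMIs of Myh11 and so entered neither lineage, and 1389 of them came from the mural cell-enriched pool. Against fibroblasts all 6 members tested were called, where 34.8% of genes were. Hhip was higher in them by 0.57 ± 0.10 on the log2 scale (adjusted p = 0.00237), at 229, 305, 217 and 330 CPM. Gli2 fell by 0.49 ± 0.05 (6.19e-05), Gli1 by 0.32 (0.0293), Smo by 0.27 (0.00284), Gli3 by 0.25 (0.0158) and Ptch1 by 0.25 (0.0183). The directions are those of mural cells against fibroblasts. Doublets of a fibroblast and a mural cell would also meet both gates. No doublet caller was run, and the part of doublets or stray RNA in these cells was not tested. No member was called in the whole cell pool alone, which held few of these cells. Without Tubb3-/- mouse 2 the calls of Ptch1, Gli1 and Gli3 were lost, without Tubb3-/- mouse 1 those of Ptch1 and Gli1, and without WT mouse 1 that of Gli3 (adjusted p = 0.0510), and without the mouse as a block Hhip and Gli2 alone were called.

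Fibroblast subsets were taken as cells with UMIs of exactly 1 of Npnt (alveolar), Pi16 (adventitial), Cthrc1 (fibrotic) and Aspn (peribronchial). At 1 UMI the sets held 1933, 153, 43 and 75 cells, and at 3 UMIs, a rule added after the data were seen, 3644, 457, 135 and 148 cells. Of the 6447 fibroblasts, 4187 had several of these genes at 1 UMI and 56 had none, and these were left out. A set therefore does not stand for all cells with its gene. Hhip differed most among the members. Cells with 3 UMIs of Aspn had 748, 904, 1016 and 977 CPM of Hhip against 169, 139, 159 and 217 CPM in Npnt cells, higher by 2.37 ± 0.16 on the log2 scale (adjusted p = 4.13e-09, 14.3% of genes called), and at 1 UMI they were higher by 2.75 ± 0.31 (4.51e-06, 11.2% of genes called). No other member was called in Aspn cells under either rule.

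Cthrc1 cells were the low end for Hhip. With 3 UMIs they had 16.1, 56.2, 24.1 and 22.4 CPM, lower than Npnt cells by 2.77 ± 0.22 (adjusted p = 2.26e-08, 28.6% of genes called), and at 1 UMI the log2 change was -2.53 ± 0.44 (0.000427, 15.6% of genes called). Their Gli3 stood at 120.5, 42.2, 88.1 and 93.5 CPM against 49.5, 49.9, 60.4 and 56.6 CPM in Npnt cells, higher by 0.89 ± 0.18 (adjusted p = 0.000722), with WT mouse 2, which held 8 such cells, in the opposite direction. At 1 UMI Gli3 was higher by 0.81 ± 0.22 (adjusted p = 0.0145), a call that was lost without WT mouse 1 (0.0766) or Tubb3-/- mouse 1 (0.194). Pi16 cells differed in Gli1, at 28.4, 37.3, 29.5 and 35.9 CPM against 14.3, 14.2, 13.7 and 14.7 CPM, higher by 1.25 ± 0.15 with 3 UMIs (adjusted p = 2.88e-06, 27.5% of genes called). Their Gli2 was higher by 0.47 ± 0.13 (adjusted p = 0.00782), while Hhip in Pi16 cells, at 133 to 188 CPM, overlapped with Npnt cells. At 1 UMI no member was called in Pi16 cells (18.5% of genes called), and Hhip was called without WT mouse 2 (-0.83, adjusted p = 0.0486).

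**Figure D3:**
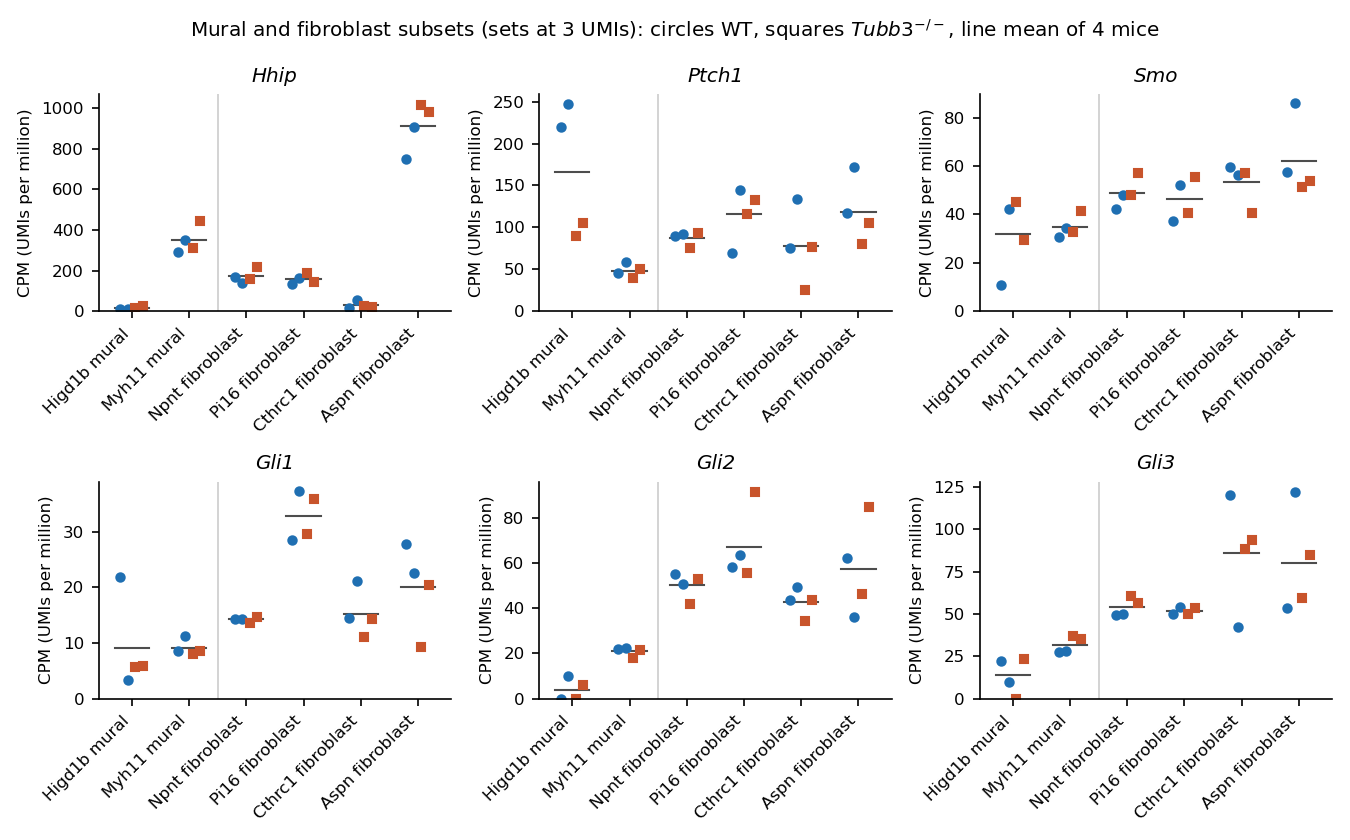
CPM of the 6 members other than Shh (panels, linear axes from 0) in mural and fibroblast subsets cut at 3 UMIs, with circles for the 2 WT mice, squares for the 2 Tubb3-/- mice and a line for the mean of the 4. Hhip runs from 9.77 CPM in a mouse's Higd1b cells to 1016 CPM in Aspn fibroblasts, and Ptch1 is highest in the Higd1b cells of the WT mice, at 219 and 247 CPM.

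Within fibroblasts, cells with and without a UMI of a target gene were compared for the other members. Between 3839 Hhip-positive and 2608 Hhip-negative fibroblasts 4.42% of genes were called, and Ptch1, Gli1 and Gli2 were among them. Ptch1 was 120.2, 139, 109 and 129 CPM in positive and 52.9, 79.5, 44.4 and 51.5 CPM in negative cells, higher by 1.11 ± 0.08 (adjusted p = 0.000249). Gli1 was 20.7, 19.5, 18.5 and 21.1 CPM against 14.6, 16.7, 12.6 and 13.6 CPM, higher by 0.45 ± 0.08 (adjusted p = 0.0159), and Gli2 was higher by 0.26 ± 0.05 (0.0319). The positive and negative sets did not overlap for Ptch1 or Gli1. The Gli1 call was lost when WT mouse 1 (adjusted p = 0.0719), Tubb3-/- mouse 1 (0.0630) or Tubb3-/- mouse 2 (0.103) was left out, and the Gli2 call without WT mouse 1 (0.129) or Tubb3-/- mouse 2 (0.169). Gli3 (-0.16, adjusted p = 0.138) and Smo (0.10, adjusted p = 0.351) were not called.

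Between 1609 Gli1-positive and 4838 Gli1-negative fibroblasts 5.13% of genes were called, among them Ptch1, Hhip and Gli2. Ptch1 was 139, 175, 136 and 159 CPM in positive and 78.7, 94.0, 63.0 and 78.3 CPM in negative cells, higher by 0.95 ± 0.05 (adjusted p = 1.80e-05). Hhip was 218, 165, 251 and 249 CPM against 152, 145, 148 and 198 CPM, higher in each mouse with some overlap between mice, by 0.44 ± 0.07 (adjusted p = 0.00726). Gli2 was 65.6, 62.5, 54.1 and 77.5 CPM against 52.1, 51.8, 42.7 and 52.1 CPM, higher by 0.37 ± 0.05 (adjusted p = 0.00315). Smo (0.05) and Gli3 (0.12) were not called.

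A cell with more UMIs is more likely to hold a UMI of any gene, and the splits were therefore repeated in cells of 5000 to 20000 UMIs. Ptch1 stayed higher in Hhip-positive cells by 1.08 (adjusted p = 2.06e-05) and in Gli1-positive cells by 0.99, and Hhip by 0.43 in the latter. In the Hhip split at this depth Gli1 was not called (0.39, adjusted p = 0.0623) and Gli3 was lower by 0.26 (adjusted p = 0.0490). Without the mouse as a block no member was called in either split (Ptch1 1.09, adjusted p = 0.0710, and 0.94, adjusted p = 0.0586). The genes with the largest rise in Hhip-positive cells were the haemoglobin genes Hbb-bt (5.23), Hbb-bs (3.39) and Hba-a1 (3.03), red-cell transcripts, and their part in the Hhip split was not tested. In Gli1-positive cells they were Pi16 (1.30), Smoc1 (1.22) and Sorcs2 (1.21).

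**Figure D4:**
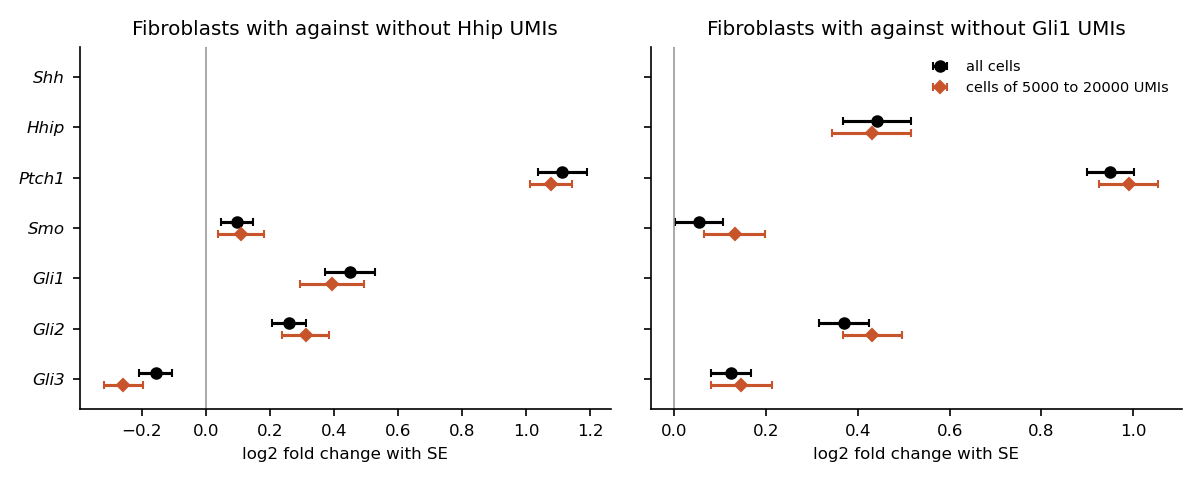
Log2 difference (with SE from edgeR, 4 mice) of each member between fibroblasts with and without a UMI of Hhip (left) or Gli1 (right), in all cells (circles) and in cells of 5000 to 20000 UMIs (diamonds). Ptch1 lies farthest from 0 in both, at 1.11 and 1.08 in the Hhip split and 0.95 and 0.99 in the Gli1 split.

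The effect of the loss of Tubb3 on the pathway genes was asked within each lineage, WT against Tubb3-/-. Of the members tested (6 in fibroblast, mural, mesothelial and immune cells, 5 in epithelial and 4 in endothelial cells) none was called by edgeR in any lineage, and DESeq2 called none either. The share of all genes called was 0.0125% in fibroblasts, 0% in mural, epithelial and immune cells, 1.86% in mesothelial and 0.869% in endothelial cells. At an unadjusted p under 0.05 there were 1 member in mural, 3 in mesothelial and 1 in endothelial cells, and none in the other lineages. Of all genes tested, 1469 of 11483 in mesothelial, 2032 of 13232 in endothelial and 3236 of 16047 in fibroblast cells were under that cut. In mural, epithelial and immune cells 1404 of 14120, 657 of 11312 and 1252 of 14428 genes were. EdgeR called no gene in mural, epithelial and immune cells, and DESeq2 called 120, 11 and 77. An exact permutation test of 2 against 2 mice cannot go below p = 0.333.

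In fibroblasts Hhip (170.2 and 150.1 CPM in WT, 176 and 212 CPM in Tubb3-/-) and Gli3 (55.3 and 52.3 against 62.4 and 63.7 CPM) did not overlap between genotypes, as held for 49.7% of all genes tested. Their log2 differences were 0.26 ± 0.14 (adjusted p = 0.354) and 0.21 ± 0.09 (adjusted p = 0.278). Ptch1 overlapped, with a log2 difference of -0.20 ± 0.12 (adjusted p = 0.399). The differences of Smo (0.15), Gli1 (-0.10) and Gli2 (-0.08) were smaller.

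Of the 4093 mural cells, 3782 fell in the Myh11 set cut at 3 UMIs and 102 in the Higd1b set. The mural test of genotype thus describes mostly Myh11 cells, and the Higd1b set was not tested between genotypes. After thinning to 3000 UMIs, its cells had a Ptch1 UMI in 51.0% and 47.3% (WT) against 23.2% and 27.7% (Tubb3-/-). Hhip went the other way, at 2.56% and 1.88% against 5.70% and 6.16%, but before thinning only 9.80% of the 102 cells had a Hhip UMI. Smo, Gli1, Gli2 and Gli3 overlapped between genotypes in this set. How many of all genes did not overlap there was not counted, so these shares describe few cells only. In mural cells Gli3 had 27.6 and 27.1 CPM in WT and 35.7 and 34.9 CPM in Tubb3-/- mice, a log2 difference of 0.35 ± 0.10 (adjusted p = 0.357). Gli1 and Gli2 were the other members without overlap (39.6% of genes), both lower in Tubb3-/- mice, with log2 differences of -0.25 and -0.18. Ptch1 differed by -0.37 ± 0.20 (adjusted p = 0.620) and Hhip by 0.22 ± 0.15 (adjusted p = 0.713). The Higd1b set held 43 of the 734 mural cells of WT mouse 2 and 15 of the 1166 of WT mouse 1. In the Tubb3-/- mice it held 23 of 1172 and 21 of 1021. The part of this in the mural Ptch1 levels was not tested. WT mouse 2, at 77.1 CPM, stood above the other 3 mice in Ptch1, and without WT mouse 1 the Ptch1 difference was -0.65 and was called (adjusted p = 0.0465), a value that rests on WT mouse 2 as the single WT mouse, with its spread assumed to be that of the Tubb3-/- mice. No difference of the genotype effect between mural cells and fibroblasts was called for any of the 6 members by edgeR (0.00628% of genes called) or DESeq2, and the differences of the effects lay between -0.14 (Ptch1) and 0.15 (Gli3).

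In mesothelial cells Smo had 139 and 137 CPM in WT and 85.3 and 96.2 CPM in Tubb3-/- mice, a log2 difference of -0.59 ± 0.14 (adjusted p = 0.0754), and Ptch1 84.1 and 92.9 against 49.1 and 61.5 CPM, -0.67 ± 0.17 (adjusted p = 0.0822). Gli3 was 0.44 ± 0.17 (adjusted p = 0.283), and with Gli1 these 4 members did not overlap, as held for 42.9% of genes. Hhip, at 1.05 ± 0.56 (adjusted p = 0.492), overlapped because WT mouse 1 was above Tubb3-/- mouse 1. Without the low-count filter Smo (adjusted p = 0.0243), Ptch1 (0.0122) and Hhip (2.77e-07) were called, and without WT mouse 1, which again leaves WT mouse 2 alone, Hhip was called at 2.73 (0.0366). The lineage holds 602 cells.

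No member was called in the other lineages. Epithelial Shh had a log2 difference of 0.03 ± 0.27 (adjusted p = 0.997), with 14.7 and 14.0 CPM in WT and 16.9 and 15.1 CPM in Tubb3-/- mice, and did not overlap, as for 38.6% of genes. Epithelial Hhip (1.29 ± 0.85) rested on Tubb3-/- mouse 2, which had 26.1 CPM against 3.38 to 5.70 CPM, and turned to -0.84 without it. Endothelial Ptch1 was 46.8 and 50.7 CPM in WT and 37.8 and 41.6 CPM in Tubb3-/- mice, a difference of -0.29 ± 0.12 (adjusted p = 0.304), and endothelial Gli3 0.43 ± 0.25, both without overlap (46.2% of genes). In immune cells only Hhip did not overlap (40.9% of genes), at -0.44.

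**Figure D5:**
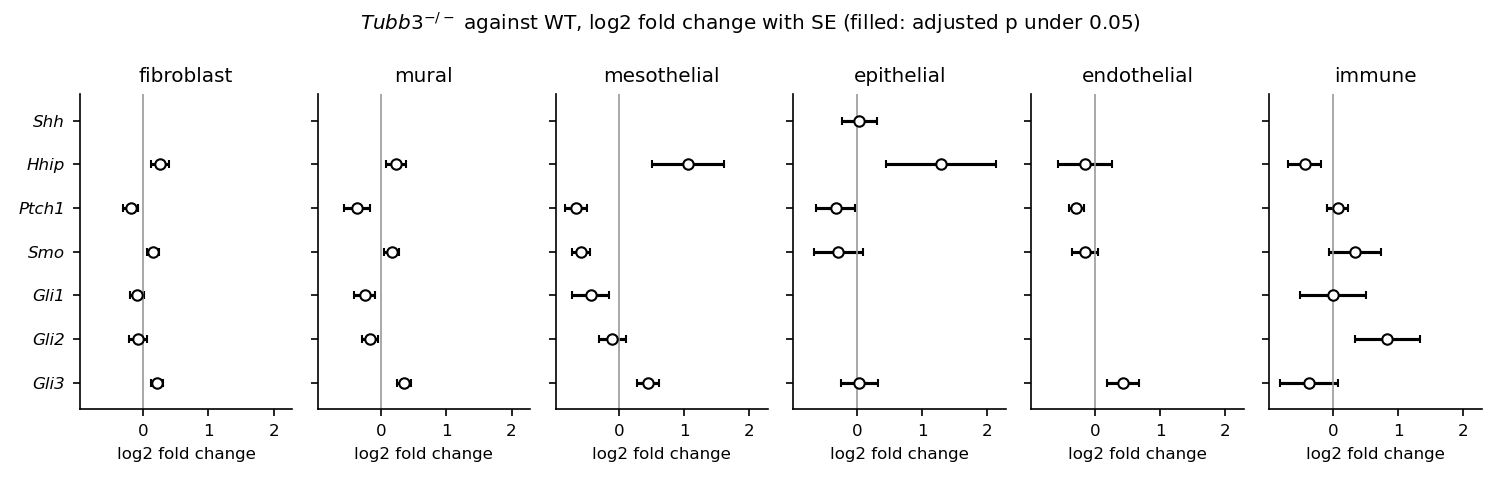
Log2 difference of Tubb3-/- from WT mice for each member tested in 6 lineages (panels), with bars for the SE from edgeR (2 mice in each group) and open circles where the adjusted p was not under 0.05. Every circle is open, and the differences run from -0.67 ± 0.17 for Ptch1 in mesothelial cells to 1.29 ± 0.85 for Hhip in epithelial cells.

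The share of Hhip-high cells was 5.43% and 3.82% of all cells in WT and 6.54% and 8.08% in Tubb3-/- mice, without overlap and with no test, since the share depends on the sort, on the lineages captured and on the deeper Tubb3-/- libraries. After thinning to 3000 UMIs, a Hhip UMI was in 27.6% and 25.8% of WT fibroblasts and 28.3% and 31.8% of Tubb3-/- fibroblasts.

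Other genes of the pathway, a list of 36, were read in the same comparisons. Between genotypes none was called by edgeR in any lineage, of 34 tested in fibroblasts, 33 in mural, 28 in mesothelial, 18 in epithelial, 29 in endothelial and 26 in immune cells. Between fibroblasts and mural cells 23 of 35 were called (48.7% of all genes), 16 higher and 7 lower in fibroblasts, with a median log2 difference of 0.21 against 0.07 over all genes. Among ligands and genes of ligand release 4 of 6 were called, among receptors and co-receptors 4 of 5, all higher in fibroblasts, in transduction 8 of 16 and among targets 7 of 8. Scube2 (4.55) and Scube1 (2.18), which help release ligand, were higher in fibroblasts and Scube3 (-4.98) was higher in mural cells. The co-receptors Gas1 (1.94) and Boc (1.49) were higher in fibroblasts, and so was Mycn (1.79), while Gpr161, which restrains the pathway at the cilium, was lower (-1.59).

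Of the other ligands, Dhh was an endothelial transcript at 8.58 ± 0.725 CPM (SD, n = 4), where fibroblasts were lower by 6.32 on the log2 scale, and Ihh had no lineage mean above 0.405 CPM (0.561 CPM in the highest mouse, in mural cells). Against mesothelial cells 22 of 35 were called, beside 46.8% of all genes (15 higher and 7 lower in fibroblasts), among them Scube2 (4.99), the co-receptor Cdon (-2.65) and the endocytic co-receptor Lrp2 (-6.86). Against endothelial cells 28 of 35 were called, beside 66.4% of all genes, and Foxf1, a mesenchymal and endothelial target, was lower in fibroblasts by 3.39. Against epithelial cells 28 of 35 were called, beside 63.1% of all genes, and against immune cells 29 of 35, beside 77.4%, so that these counts are not particular to the list. Against the mean of the other 5 lineages, epithelial cells were higher in Lrp2 (4.97) and in the ciliary genes Stk36 (3.10) and Ift88 (2.26), and lower in Foxf1 (-4.05). Lrp2 was not highest in epithelial cells, with a mean of 116 CPM against 152 CPM in mesothelial cells. Scube2 was also lower in Pi16 (-5.29), Aspn (-4.25) and Cthrc1 (-3.46) than in Npnt fibroblasts.

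The pathway list was also read in the splits by Hhip and Gli1. Of 34 list genes tested in the Hhip split 4 were called (4.42% of all genes), all higher in Hhip-positive fibroblasts, with Foxl1 (1.12), Foxf1 (0.37) and Boc (0.33) among them. In the Gli1 split 8 of 34 were called (5.13% of all genes), 7 of them higher, with Foxl1 (1.26), Cdon (0.61) and Ccnd1 (0.45) among them and Scube2 lower (-0.64). Foxl1, a forkhead factor, is a known target of the pathway.

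The genes whose pattern was most like that of each member were found by Pearson's r of log2(CPM + 1) over the 24 sums of 6 lineages in 4 mice, among 14104 genes, as a description. The sums share mice and the lineages dominate the order. Shh was closest to its gate gene Epcam (0.997), 2610528J11Rik (0.996) and Zfp474. Hhip was closest to Gm10848 (0.972), Angptl2 (0.968) and Aspn (0.963), the gene that also marks the subset where Hhip was highest. Ptch1 was closest to Fkbp9 (0.975), Pkd2 (0.966) and Grb10 (0.957), and Smo to Gm49708 (0.973), P3h4 (0.968) and Itga2b (0.964). Gli1 was closest to Ctsf (0.974), Gli2 (0.969) and C1s1 (0.969), Gli2 to Xkr4, Armh4 and Ctsf (0.984), and Gli3 to Phpt1, Rbms3 and Aldh7a1. Between members the closest were Gli1 and Gli2, followed by Smo and Gli2 (0.920) and Smo and Gli1 (0.906). Hhip and Ptch1, the receptors that both damp the signal, were at 0.669, and Shh lay between -0.48 and -0.01 with the others.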

How the data were processed

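Single-cell suspensions of the lungs of 2 WT and 2 Tubb3-/- mice were tagged with CellPlex oligonucleotides, pooled over the 4 mice into a whole cell and a mural cell-enriched pool, and captured with a 10x Genomics 3′ kit. The tags split the pools into 8 sets of cells, called libraries here, 1 of each pool for each mouse. Per the study's methods and the submitters' processing notes, the authors aligned the reads with Cell Ranger 7.1.0 to mm10 (GRCm38). The deposited tables hold UMI counts per gene and cell, not normalized. The counts of multiplexing tags, 26.2% to 36.4% of the UMIs of a library, are not genes and stayed out of every total.

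Cells outside 200 to 7500 genes or above 15% mitochondrial UMIs were removed (1261 of 32121). The study clustered its cells. Here lineages were taken by single-gene gates that are not the study's, at 1 UMI, with 3 UMIs required of both Higd1b and Myh11 for mural cells. Cells that met several gates (10248) or none (1217) entered no lineage. No doublet caller was run; dropping cells of several gates, and an alternative without cells above 30000 UMIs, stand in its place. UMIs were summed per mouse and set, since cells are not replicates, and tested with edgeR 4.0.16 (R 4.3.3, TMM, filterByExpr, quasi-likelihood test, Benjamini-Hochberg over all genes tested, threshold 0.05). Contrasts of lineages or subsets had the mouse as a block, and contrasts of genotypes had none. A standard error is the log2 difference divided by the square root of F. Members with under 40 UMIs were not tested. Shares of cells were also taken after thinning cells to 3000 UMIs, and the bound of a set at 0 was taken as 3 UMIs. Intervals and bounds cover counting error only. The code was tested on simulated counts with known changes.

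The alternatives were DESeq2 1.42.0, RLE scaling, no low-count filter, gates at 2 UMIs, Higd1b at 1 UMI, no limits on cells, cells up to 30000 UMIs, each pool alone, each mouse left out, the block added or removed and, for the splits, cells of 5000 to 20000 UMIs. Subsets at 3 UMIs and cells with 10 Hhip UMIs were chosen after the data were seen. Named were the 7 members, at most 8 called pathway genes per contrast by size of change, the 3 genes most alike to each member among genes with at least 5 CPM in a lineage, the 3 genes that rose most among those called with at least 10 CPM in each split, and Tubb3. Single values of some pathway genes are not reported here. The genes named in the Hhip-high cells were chosen after their values were seen. The members and lists were chosen with earlier results of these data known. Promoter sequences are those of RefSeq (GRCm38.p6). The labels do not say that the mice of a number were littermates or shared a batch.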

Additional observations from a re-analysis of the deposited data

Results flagged for a closer look

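Cells that met none of the lineage gates, and so could hold fewer than 3 UMIs of Higd1b or Myh11, entered no comparison. These 1217 cells had a median of 6401 UMIs. Their mean Hhip level was 571 CPM over the 4 mice, above every gated lineage (328 CPM in mural cells). The mice stood at 760.2, 416, 415 and 692 CPM, each above the mural cells of the same mouse, from 6310 Hhip UMIs. The 144 of these cells with at least 10 Hhip UMIs made up 14.2% and 4.26% of them in the WT and 12.4% and 14.5% in the Tubb3-/- mice, and held 92.8%, 87.2%, 91.3% and 91.2% of their Hhip. They had 2434, 2171, 2050.1 and 2781 CPM of Aspn, near the level of the Hhip-high mural cells, but 54.5 to 72.2 CPM of Myh11. Their Ptch1, at 65.3, 97.6, 40.2 and 92.0 CPM, was above that of the Hhip-negative ungated cells of the same mouse (51.7, 47.0, 36.0 and 58.6 CPM) in each of the 4. No test was run on these cells, which were taken from the counts of Hhip.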

How the results depend on the processing

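All values here are log2 differences unless given as counts. For the 51 differences of members that were called, 724 values were computed under the alternatives: 671 kept the direction and the call, 51 kept the direction without the call and 2 turned, those of Ptch1 (0.25) and Gli1 (0.04) between Pdgfra and Myh11 cells and fibroblasts in whole cells alone. For the 66 that were not called, 918 values were computed, of which 826 kept direction and side, 27 were called and 65 turned. The causes were not tested.

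Whole cells alone also turned the genotype differences of Gli2 in mural (0.65), Gli3 in mesothelial (-0.01), Ptch1 (0.62) and Gli3 (-0.18) in epithelial and Gli1 in immune cells (0.09), and the differences of the genotype effects (mural minus fibroblast) of Hhip (0.13) and Gli2 (0.74). They turned Ptch1 (1.76) and Smo (7.26) between Myh11 and Higd1b cells, Smo (-0.02) and Gli2 (-0.48) in Cthrc1, Smo in Pi16 (0.01) and Ptch1 in Aspn cells (-0.74), and Gli3 in the Gli1 split (-0.10). The mural cell-enriched pool alone turned the genotype differences of Shh in epithelial (-0.27), Hhip (0.34) and Smo (1.02) in endothelial and Hhip in immune cells (0.25), and Gli1 between fibroblasts and mesothelial cells (-0.01) and Gli3 between epithelial and other cells (-0.72).

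Gates at 2 UMIs turned the genotype differences of Gli3 in epithelial (-0.14) and of Gli1 (0.03) and Gli3 (0.02) in immune cells, the differences of effects of Hhip (0.01), Ptch1 (0.01) and Gli2 (0.09), Smo between Myh11 and Higd1b cells (0.18), and Smo (-0.03) and Gli2 (-0.07) in Cthrc1 cells. Without the low-count filter Gli1 in immune cells (0.01) and Smo in Cthrc1 cells (-0.07) turned. Without cells above 30000 UMIs Gli1 in immune cells (0.01), the difference of effects of Smo (-0.02) and Ptch1 in Cthrc1 cells (0.27) turned. Sets at 3 UMIs, chosen after the data were seen, turned Smo between Myh11 and Higd1b cells (0.25) and Gli2 in Cthrc1 cells (-0.21).

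When each mouse was left out in turn, which leaves a lone mouse in its genotype that is assumed to vary like the other group, genotype differences ran from -0.24 to 0.08 for Gli2 in fibroblasts, -0.00 to 0.41 for Hhip in mural cells and -0.43 to 0.13 for Gli2 in mesothelial cells. In epithelial cells they ran from -0.02 to 0.08 for Shh, -0.84 to 2.14 for Hhip, -0.65 to 0.05 for Ptch1 and -0.30 to 0.31 for Gli3, and in endothelial cells from -0.86 to 0.33 for Hhip. In immune cells they ran from -0.03 to 0.16 for Ptch1, -0.11 to 0.71 for Smo, -0.59 to 0.37 for Gli1 and -0.80 to 0.30 for Gli3. Gli1 between fibroblasts and mesothelial cells ran from -0.04 to 0.24. The differences of effects ran from -0.21 to 0.10 (Hhip), -0.34 to 0.02 (Ptch1), -0.03 to 0.04 (Smo) and -0.18 to 0.01 (Gli2). Smo ran from -0.49 to 0.75 between Myh11 and Higd1b cells and from -0.37 to 0.04 in Pi16 cells. In Cthrc1 cells the ranges were -0.63 to 0.15 (Ptch1), -0.31 to 0.33 (Smo) and -0.10 to 0.63 (Gli2).

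The number of members called moved with some settings. The share of all genes called is not given for each setting, so these counts describe the settings only. For genotype in mesothelial cells it was 3 without the low-count filter and 0 to 1 with a mouse left out (1 without WT mouse 1), and in mural cells 0 to 1 (1 without WT mouse 1). Between fibroblasts and mesothelial cells it was 5 with gates at 2 UMIs. Between Myh11 and Higd1b cells it was 1 with DESeq2, without the filter, without cells above 30000 UMIs and in whole cells alone, 4 with sets at 3 UMIs and 1 to 2 with a mouse left out. For the Pdgfra and Myh11 cells it was 0 in whole cells alone and 3 to 6 with a mouse left out. In Cthrc1 cells it was 1 without the filter and in whole cells alone and 1 to 2 with a mouse left out. In Pi16 cells it was 1 with gates at 2 UMIs, 2 with sets at 3 UMIs and 0 to 1 with a mouse left out. In the Hhip split it was 1 in whole cells alone and 1 to 3 with a mouse left out.

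Mice of the same number share only that number in the labels. Their deviations from the group means correlated at 0.434 in fibroblasts over 16047 genes in 2 pairs. With the replicate block, the genes called between genotypes numbered 1386 in fibroblasts (2 without it), 394 in mural (0), 625 in mesothelial (214), 843 in endothelial (115), 8 in epithelial (0) and 2 in immune cells (0), and 3 members were called in mesothelial cells, Smo (-0.59, adjusted p = 0.0294), Ptch1 (-0.66, 0.0156) and Hhip (1.32, 0.00252). In the contrasts within mice, leaving the replicate block out gave 2 members called for the Pdgfra and Myh11 cells and 0 in the Hhip and the Gli1 split, where it left 7 and 2 genes called of 633 and 728 with it.

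Counts of genes called between genotypes depended on the tool and the filter. DESeq2 called 767 genes in fibroblasts, 120 in mural, 218 in endothelial, 11 in epithelial and 77 in immune cells, and no filter gave 921, 667, 1082, 177 and 234, with 719 in mesothelial cells. In whole cells alone, with fewer cells, 398 genes were called between Myh11 and Higd1b cells (1752 in both pools), 914 in the Pdgfra and Myh11 cells (5102), 171 in Cthrc1 (964), 474 in Pi16 (1140) and 241 in Aspn cells (691). Few cells or UMIs stand behind the Higd1b, Cthrc1 and epithelial values, and depth limits these.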

Other observations

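Many UMIs of the members lay outside cells of a single lineage. Of 73613 Hhip UMIs 54.0% were in cells of 1 lineage, 37.4% in cells that met several gates and 8.57% in cells that met none, and of 383 Shh UMIs 38.6%, 57.2% and 4.18%. The cells that met several gates had 138, 123, 121 and 165 CPM of Hhip and 0.828, 1.12, 1.03 and 1.34 CPM of Shh in the 4 mice.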
